A study of Mus musculus with 18 samples.

Results

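Solute carrier (SLC) genes encode membrane proteins that move sugars, amino acids, ions, metals, vitamins and metabolites across the plasma membrane, the lysosome, the Golgi and the inner mitochondrial membrane. They were described here in 3 stages of mouse neutrophil development, by transcript level (RNA-seq), by CHD4 binding and by histone H3 lysine 4 dimethylation (H3K4me2, a mark of promoters and enhancers). The members were the protein-coding genes whose symbol starts with Slc and a number and whose mean level reached 5 TPM (transcripts per 1000000 transcripts of a library) in at least 1 stage, which left 160 of 339 such genes. All 160 entered the fit across genes, against 188 of the 339. The members were thus selected on measured level, 145 of them through GMPs, 117 through preNeu and 104 through matNeu. The 84 members at 5 TPM or more in every stage did not depend on 1 stage, while 38 reached it in 1 stage alone (26 in GMP, 11 in matNeu and Slc9a3r2 in preNeu) and so had to differ between stages. Just inside the limit stood Slc25a42, Slc46a3 and Slc25a23, with highest stage means of 5.26, 5.76 and 5.8 TPM. Just outside stood Slc39a14, Slc24a5 and Slc25a35, with 4.86, 4.16 and 4.03 TPM. Of the 339 genes, 61 were listed at 0 TPM in every library.

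The cells came from the bone marrow of wild-type C57BL/6 mice aged 6 to 12 weeks, with marrow pooled before sorting. They were granulocyte-monocyte progenitors (GMP), neutrophil precursors (preNeu) and mature neutrophils (matNeu), with 3 RNA-seq libraries a stage and 1 H3K4me2 library a stage. CHD4, the helicase subunit of the NuRD nucleosome remodelling complex, whose link to the transcription factor GFI1 the study examined, was mapped in 1 library of wild-type GMPs and 1 of GMPs from mice lacking Gfi1 (Gfi1-/-), the only animals here that were not wild type. The titles and the cell type field of the labels named different stages for 13 of 18 samples, all 9 RNA-seq libraries among them. The titles were followed, and the stage markers went with them. Mpo stood at 32282 TPM in the libraries titled GMP and 4.05 in those titled matNeu, Ngp at 71395 in preNeu, and Cxcr2 at 3468 in matNeu. Replicate libraries of a stage correlated at r = 0.960 to 0.971 over genes. Nothing in the labels says that replicates came from separate animals, so p-values measure the spread between these libraries only.

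TPM gives each library the same total, so the abundant transcripts of a stage lower all others. The 10 most abundant genes held 9.15 to 9.78% of TPM in GMP, 24.1 to 28.3% in preNeu and 12.7 to 15.9% in matNeu. Over all 13061 genes tested, the median log2 change was -0.92 from GMP to matNeu, -0.52 from GMP to preNeu and -0.32 from preNeu to matNeu. Scaling by median of ratios moved these medians to -0.20, -0.09 and -0.07, and scaling without the 100 most abundant genes moved them to -0.78, -0.19 and -0.50. A member that fell less than the median gene therefore cannot be told from one that held its level, and changes are read below against these medians. Markers of other cells also differed by stage. The summed level of the 5 eosinophil markers ran from 877 to 1137 TPM in GMP, from 86 to 108 in preNeu and from 35 to 53 in matNeu, where Epx and Ear1 were listed at 0. The 4 basophil and mast cell markers summed to 521 to 703, 308 to 488 and 2 to 13 TPM in the same order. The 7 monocyte and macrophage markers were all above 1 TPM in every stage, summing to 364 to 448, 236 to 363 and 354 to 490 TPM. Their part in the results below was not tested. In sorted bulk cells, more transcripts per cell and more cells of a type cannot be told apart.

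Together the 160 members held 1.08 to 1.13% of TPM in the GMP libraries, 0.597 to 0.682% in preNeu and 0.933 to 1.07% in matNeu. What made up that share changed with stage. In GMP the SLC25 carriers of the inner mitochondrial membrane gave 5173 ± 298 TPM of the members' 11037 ± 273, and in matNeu 1737 ± 78.8 of 9904 ± 703. Sugar carriers went from 172 ± 19.2 TPM in GMP through 269.9 ± 22.7 in preNeu to 1923 ± 143 in matNeu (mean ± SD, n = 3 libraries). The 7 SLC16 carriers, taken as the class of carboxylates such as lactate and pyruvate, went from 242 ± 26.5 through 237 ± 31.3 to 1404 ± 99.2 TPM. Slc16a10, an aromatic amino acid carrier counted here with its family, held 30.1% of this sum in GMP. Its stage means were 72.9, 28.2 and 23.1 TPM. Metal carriers summed to 866 ± 57.5, 992 ± 105 and 1669.5 ± 83.6 TPM in the same order. These sums followed a few abundant genes. In matNeu Slc16a3 held 92% of the carboxylate sum and Slc2a3 49.8% of the sugar sum. Slc40a1 held 42% of the metal sum there and Slc11a1 gave a further 478 TPM, while 10 of the 19 metal carriers were called lower than in GMP. Nucleoside carriers went from a sum of 527 ± 18.2 to 192 ± 17.6 TPM, and nucleotide sugar carriers of the Golgi and endoplasmic reticulum from 1302 ± 73 to 614 ± 77.2. The 3 GMP sums and the 3 matNeu sums did not overlap in any class, those not named here included. Such a gap therefore does not set the named classes apart. The smallest p that an exact permutation test allows at this size is 0.10, so the sums are given without a test.

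**Figure D1:**
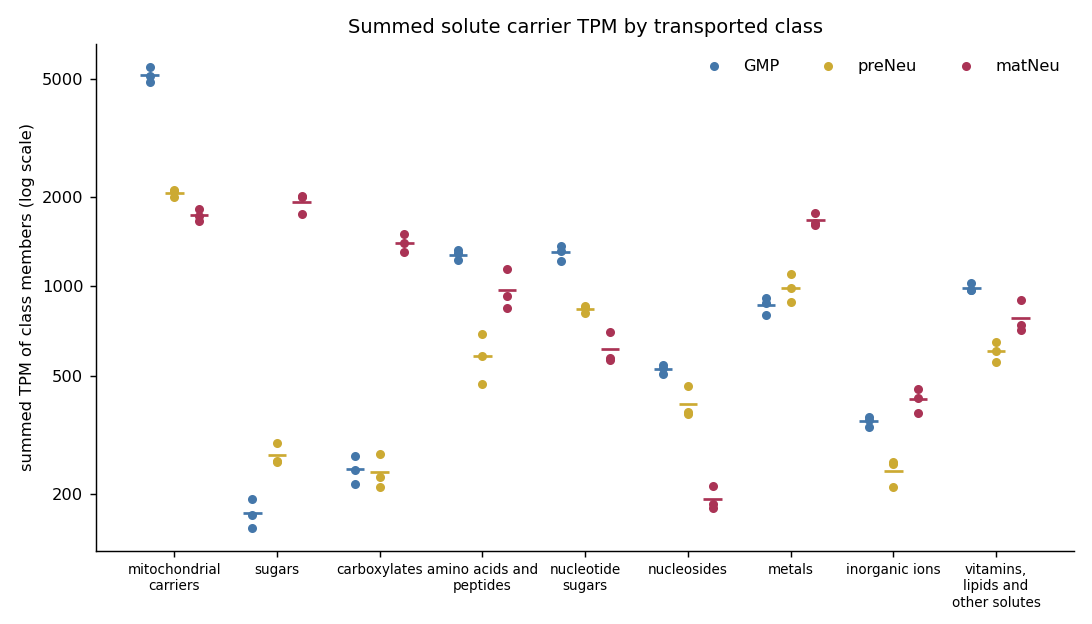
Summed TPM of the members of each transported class (log scale), with 1 point per library, a bar at the mean of the 3 libraries and colours for GMP, preNeu and matNeu. The sum of mitochondrial carriers is highest in GMP, and those of sugar, carboxylate and metal carriers, led by a few genes, are highest in matNeu.

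Between GMP and matNeu, limma called 34 members higher and 96 lower in matNeu at an adjusted p under 0.05 (Benjamini-Hochberg over all genes tested). Changes are given as log2(TPM + 1), which understates those of low genes, and 3 stage means given together stand in the order GMP, preNeu and matNeu. Of all genes tested 22.8% were called higher and 54.1% lower, and of protein-coding genes selected by the same 5 TPM rule 23.6% and 60.7%, against 21.2% and 60% of members. The members as a whole thus stood near the background. Their median log2 change was -1.42. All 34 rises were called under each of the 3 scalings, and 77 of the 96 falls. Median-of-ratios scaling gave 54 rises and 77 falls, so that rises were 41.2% of calls instead of 26.2%. Among the 84 members at 5 TPM or more in every stage 21 rose and 41 fell (25% and 48.8%), against 27.2% and 51.7% of the 5287 protein-coding genes at that level in every stage, and median-of-ratios scaling turned the balance to 36 rises and 30 falls. The counts by class below are set against the 23.6% of genes higher and 60.7% lower under the 5 TPM rule.

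**Figure D2:**
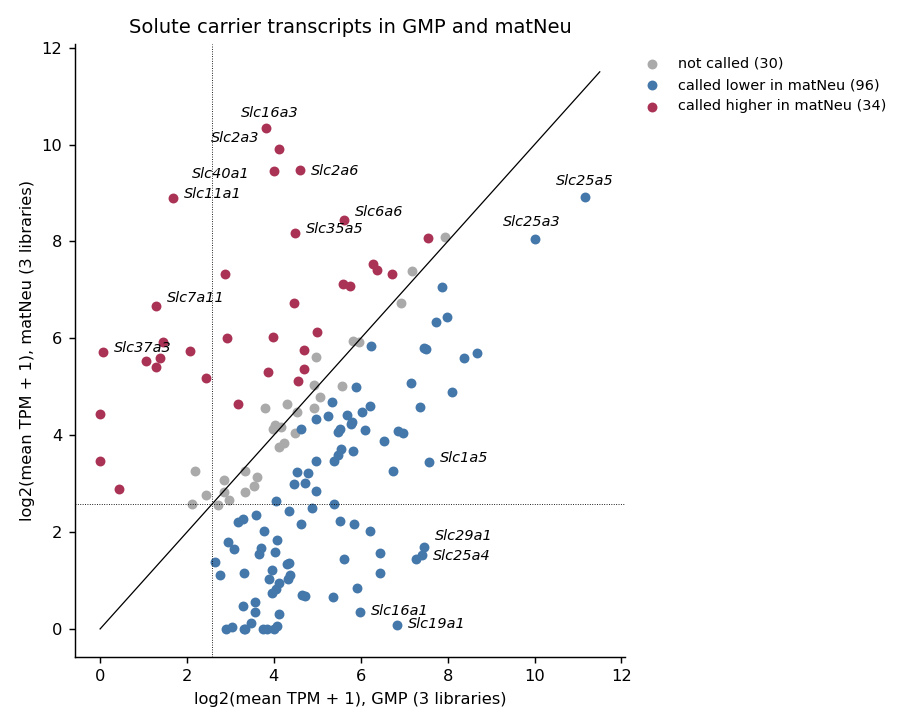
Mean level of each of the 160 members in GMP (x axis) and matNeu (y axis), as log2(mean TPM + 1), coloured by the limma call. The line marks equal levels and the dotted lines the 5 TPM limit, and the members farthest above the line are Slc11a1, Slc16a3, Slc2a3, Slc37a3, Slc40a1 and Slc7a11.

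Between GMP and preNeu, 26 members were called higher and 92 lower, where the shares of all genes tested were 14.7% and 44.3% and those of genes under the same 5 TPM rule 17.2% and 49.1%. Both other scalings kept 26 of the rises and 66 of the falls. Between preNeu and matNeu, 41 were called higher and 73 lower in matNeu, against 22.9% and 39.8% of all genes tested and 23.1% and 48% of genes under the same 5 TPM rule. Here 37 rises and 59 falls were called under all 3 scalings. By the 2 steps together, 11 members rose at each step, 47 fell at each step, 12 rose to preNeu and then fell, and 18 fell to preNeu and then rose. The last group was 11.2% of members and 7.13% of genes under the same 5 TPM rule, and the group that rose and then fell 7.5% and 6.69%. Those that rose at each step were 6.88% and 6.56%, and those that fell at each step 29.4% and 27.7%. These groups rest on TPM as deposited, and 26 of the 92 falls to preNeu lost their call under median-of-ratios scaling.

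The mix of sugar carriers changed with stage. Glucose enters cells through facilitative carriers of the SLC2 family, and mature neutrophils are known for an energy supply that rests largely on glycolysis. Of the 11 members of this class 5 rose, 3 fell and 3 were not called between GMP and matNeu (45.5% and 27.3%, against 23.6% and 60.7% of genes). Slc2a3, the high-affinity glucose transporter GLUT3, stood at 12.5, 22 and 14.8 TPM in the GMP libraries, 147, 142 and 152 in preNeu and 886, 1036 and 952 in matNeu. The stages did not overlap, and the log2 change from GMP to matNeu was 5.82 ± 0.18 (SE) with a limma adjusted p of 6.58e-10. Slc2a6, which encodes the lysosomal hexose carrier GLUT6, went from 27.2, 21.9 and 20.7 TPM in GMP to 0.251, 1.6 and 0.637 in preNeu and 642, 718 and 779 in matNeu. It thus fell before it rose (-3.79 ± 0.25 and 8.67 ± 0.25 on the log2 scale, limma adjusted p = 8.61e-07 and 1.23e-09). Slc2a1, the widespread glucose transporter GLUT1, read 20.9, 22.1 and 20.6 TPM in GMP, 9.5, 14 and 13 in preNeu and 86.5, 109 and 121 in matNeu. Its rise from GMP to matNeu was 2.25 ± 0.19 (limma adjusted p = 9.56e-07), and its lower level in preNeu was called with TPM as deposited but not with median-of-ratios scaling. Of the summed TPM of these 3 genes Slc2a3 held 26.8 ± 6.4% in GMP, 91.9 ± 1.8% in preNeu and 54 ± 2.2% in matNeu (mean ± SD over 3 libraries).

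Among the SLC37 carriers, which move sugar phosphates, 1 fell and 2 rose between GMP and matNeu. Slc37a4, the glucose-6-phosphate translocase whose loss in people causes glycogen storage disease with low neutrophil counts, had 63.7, 76.7 and 61.1 TPM in GMP and 19.4, 18.6 and 10.7 in matNeu, a change of -2.02 ± 0.22 (limma adjusted p = 8.29e-06). Slc37a2 went from 1.3, 0.553 and 1.41 to 41.4, 41.8 and 53.2 TPM and Slc37a3 from 0.0659, 0.0666 and 0 to 49.1, 59.1 and 47.6. Both entered the members through matNeu alone. Slc37a1 was highest in preNeu, at 28.6, 33.9 and 33.6 TPM against 16.4, 16.7 and 12.4 in GMP and 17, 14.2 and 21.6 in matNeu, and an unnamed gene on the other strand shares 20.3% of its exonic bases. Slc5a11, a sodium-coupled inositol carrier, had means of 5.53, 18 and 4.9 TPM, and its limma adjusted p from GMP to preNeu went from 0.0161 to 0.0671 without preNeu library 3 and 0.0655 without GMP library 3.

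Among carboxylate carriers, 2 lactate transporters crossed. Slc16a1 (MCT1) and Slc16a3 (MCT4, the form found in glycolytic cells that export lactate) both move lactate with a proton. Slc16a1 stood at 63.9, 64.1 and 58.8 TPM in GMP, 8.54, 7.55 and 9.54 in preNeu and 0.1, 0.226 and 0.517 in matNeu. Slc16a3 stood at 14.8, 14 and 10.7, then 111, 122 and 105, then 1192, 1296 and 1389 TPM. No stages overlapped in either gene, and the log2 changes from GMP to matNeu were -5.64 ± 0.22 and 6.52 ± 0.14, with limma adjusted p of 2.88e-09 and 1.11e-10. Of the summed TPM of Slc16a1, Slc16a3, Slc16a6 and Slc16a7, Slc16a3 held 8.49 ± 0.38% in GMP, 54.4 ± 3.1% in preNeu and 95 ± 1.1% in matNeu. Slc16a6 had stage means of 55.2, 66.4 and 61 TPM, with no call as deposited. Slc16a7 (MCT2) was lower in matNeu (7.12 against 25.3 TPM), which median-of-ratios scaling did not call. Slc16a14, a member through matNeu alone, was listed at 0 in all 3 GMP libraries and at 19.7, 22.7 and 19.6 TPM in matNeu. These transporters reach the membrane with a chaperone. Bsg had means of 525, 236 and 111 TPM and was called lower in matNeu, and Emb had 815, 79.1 and 944.

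**Figure D3:**
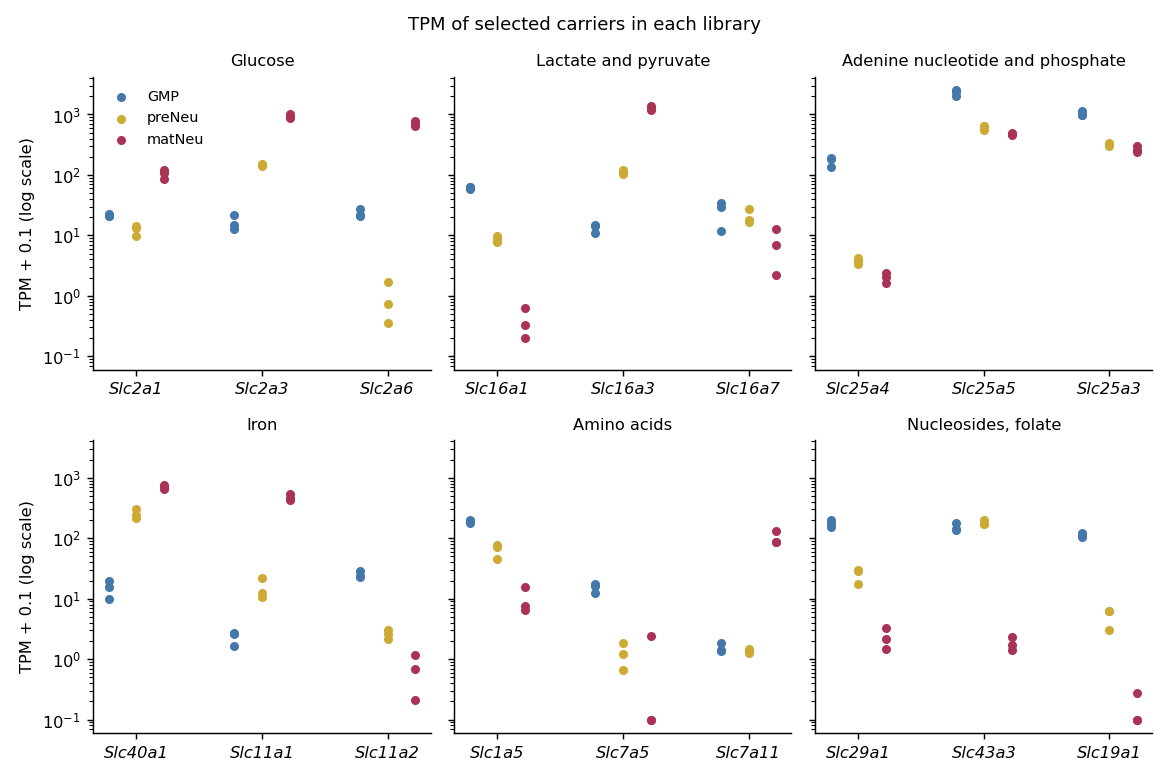
TPM plus 0.1 (log scale) of 18 carriers in each of the 9 libraries, in 6 panels, with colours for stage. Slc16a1 and Slc16a3 cross between GMP and matNeu, as do Slc11a2 and Slc11a1, while Slc25a4, Slc29a1 and Slc19a1 descend.

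Bases upstream of the start are shown for 2 members, Slc16a3 as the highest member in matNeu and Slc25a5 as the highest in GMP. They are the 120 bases before the RefSeq start in GRCm38.p6, on the gene's strand, at chr11:120948947-120949066 for Slc16a3 and chrX:36795477-36795596 for Slc25a5, with ACGTG, the core shared by binding sites of hypoxia-inducible factors and of several E-box proteins, in capitals where it occurs on either strand.
Slc16a3: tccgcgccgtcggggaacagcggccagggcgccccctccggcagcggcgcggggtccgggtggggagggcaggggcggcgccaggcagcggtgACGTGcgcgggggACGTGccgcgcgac
Slc25a5: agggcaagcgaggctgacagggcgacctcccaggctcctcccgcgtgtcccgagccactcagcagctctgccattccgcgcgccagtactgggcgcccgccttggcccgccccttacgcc
The Slc16a3 stretch held 2 matches and the Slc25a5 stretch none. The same 120 bases of Slc11a1 and Slc2a6, which also rose from GMP to matNeu, held none either. Within 250 bases before the start, 8 of 25 members that rose and 16 of 72 that fell held the letters (32% and 22.2%), against 20.8% of genes that rose and 23.4% of those that fell. The share was 16.6% of all RefSeq genes and 22.9% of genes at 5 TPM or more. A match of 5 letters is not a site, and 122 of the 160 members had a sequence in the table.

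Mitochondrial carriers link the mitochondrial matrix to the cytosol for ADP and ATP, phosphate, citrate, aspartate, iron and cofactors. Of 35 members 24 were called lower in matNeu than in GMP and 6 higher (68.6% and 17.1%, near the 60.7% and 23.6% of genes), and 19 of the falls were called under median-of-ratios scaling. Slc25a5, the ADP/ATP carrier of dividing cells, was the most abundant member in GMP at 2499.7, 2027 and 2319.6 TPM, against 635, 657 and 549 in preNeu and 479, 499.8 and 460.2 in matNeu (-2.24 ± 0.11 on the log2 scale from GMP to matNeu, limma adjusted p = 1.60e-08). Its paralog Slc25a4, the form of heart and muscle, fell too, from 191, 135 and 181 TPM to 3.61, 4.09 and 3.27 and 1.5, 2.26 and 1.94, a change of -5.87 ± 0.22 (limma adjusted p = 1.98e-09). Slc25a4 held 6.86 ± 0.53% of the pair's TPM in GMP and 0.394 ± 0.072% in matNeu. It entered the members through GMP alone and so had to differ between stages. The pair is similar in sequence, and reads that both could give were divided between them by estimation. The phosphate carrier Slc25a3 read 1122, 984 and 993 TPM in GMP, 335, 326 and 305 in preNeu and 239, 256 and 302 in matNeu. Slc25a39, needed for mitochondrial glutathione, went from a mean of 329 to 96.6 and 47.1 TPM.

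The aspartate/glutamate carriers of the malate-aspartate shuttle, Slc25a12 and Slc25a13, were both lower in matNeu, with means of 210.1 and 79.9 TPM for the first and 40.2 and 0.581 for the second. The 2-oxoglutarate carrier of the same shuttle, Slc25a11, was slightly higher, from 209, 189 and 159.9 to 267, 261 and 280.0 TPM (0.54 ± 0.14, limma adjusted p = 0.00381). Citrate carrier Slc25a1 and dicarboxylate carrier Slc25a10 had means of 91.6 and 73.5 TPM in GMP and 13.8 and 3.05 in matNeu. Slc25a24, a calcium-regulated ATP-Mg/phosphate carrier, peaked in preNeu at 88.1, 82.4 and 94.6 TPM, against 15.7, 13.9 and 10.9 in GMP and 35.1, 42.3 and 38.2 in matNeu, and both steps were called. Of the mitoferrins, which bring iron into mitochondria, Slc25a37 was called higher in matNeu (means 25 and 52.8 TPM) and Slc25a28 had no call (6.8 and 5.32 TPM). The pyrimidine nucleotide carrier Slc25a33 rose from 4.39 in GMP to 35.2 TPM in matNeu.

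Transporter genes with other symbols, mitochondrial ones among them, were read from a list of 41, of which 33 were in the table and 28 could be tested. Between GMP and matNeu 7 of these 28 rose and 16 fell, near the 22.8% and 54.1% of all genes tested. The largest changes were in Sfxn5 (from 4.5 to 343 TPM) and Sfxn1, the mitochondrial serine carrier (from 134 to 0.96), with Slco4c1 (from 0.246 to 37) and Mfsd12 (from 50.5 to 3.19) next. Mpc1, a subunit of the mitochondrial pyruvate carrier, had 189 TPM in GMP and 361 in matNeu.

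The mix of iron carriers changed with stage too. Slc11a1 (NRAMP1) pumps divalent metal out of the phagosome and is known for resistance to intracellular bacteria, Slc11a2 (DMT1) brings transferrin iron out of the endosome, and Slc40a1 (ferroportin) exports iron from the cell. Slc11a1 stood at 2.53, 1.54 and 2.61 TPM in GMP, 10.5, 12.5 and 22.1 in preNeu and 430.3, 468 and 536 in matNeu, the largest rise among the members (7.23 ± 0.26, limma adjusted p = 1.75e-09). Slc11a2 stood at 23.1, 28.6 and 23.7 TPM in GMP, 2.54, 2.91 and 2.08 in preNeu and 0.108, 0.601 and 1.08 in matNeu (-4.08 ± 0.28, limma adjusted p = 2.07e-07). Slc11a1 thus held 8.3 ± 2.8% of the pair in GMP and 99.9 ± 0.088% in matNeu. Slc11a2 entered the members through GMP alone and so had to differ between stages. Slc40a1 rose from 9.94, 19.5 and 15.3 through 217, 245 and 303 to 708, 648 and 749 TPM (5.51 ± 0.21, limma adjusted p = 2.65e-09). Iron-recycling macrophages of the marrow express ferroportin, so the 7 monocyte and macrophage markers are set beside this rise. C1qa, C1qb, Cd5l and Vcam1 were highest in preNeu, where Slc40a1 was above its GMP level, with means of 1.42, 1.37, 1.31 and 24.9 TPM in GMP, 24.9, 37.5, 16.8 and 186 in preNeu and 6.68, 6.83, 3.08 and 9.81 in matNeu. Csf1r and Adgre1 were highest in matNeu, as Slc40a1 was, at 204, 13.8 and 304 TPM for the first and 12.3, 11.4 and 83.8 for the second, and Ly86 had 150.5, 3.46 and 3.29. The part of such cells in the Slc40a1 level was not tested. Slc48a1, which moves heme out of lysosomes, fell to matNeu (means 175, 126 and 54.4 TPM).

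Of the 19 metal carriers 5 rose and 10 fell between GMP and matNeu (26.3% and 52.6%, near the 23.6% and 60.7% of genes). Between preNeu and matNeu 7 were called higher and 12 lower (36.8% and 63.2%, against 23.1% and 48% of genes), with 15 and 17 of the 19 called under the other scalings. Zinc importers changed in both directions. Slc39a4 (ZIP4) had 1.14, 2.4 and 1.67 TPM in GMP, 0.998, 0.765 and 0 in preNeu and 53.8, 69.5 and 56.6 in matNeu. It entered the members through matNeu alone. Slc39a11 was highest in preNeu, at 186, 208 and 242 TPM, with 104, 123 and 119 in GMP and 16.5, 14.7 and 16.9 in matNeu. The importers Slc39a6, Slc39a8 and Slc39a10 fell from means of 48.2, 14.6 and 19.1 TPM in GMP to 1.72, 0.68 and 1.03 in matNeu. Slc39a10 was a member through GMP alone. Slc39a7, which releases zinc from the endoplasmic reticulum, had means of 235, 80.0 and 133 TPM, but an annotated gene on the same strand shares 84.5% of its exonic bases, and the sign of its change from GMP to matNeu turned with median-of-ratios scaling. Copper carriers differed too. Slc31a1 (CTR1) fell from 55.2 to 11.7 TPM, while Slc31a2 rose from 53 in GMP to 196 in preNeu and stood at 134 in matNeu.

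Of the 23 amino acid and peptide carriers 15 fell and 4 rose between GMP and matNeu (65.2% and 17.4%, near the 60.7% and 23.6% of genes). Slc3a2, the CD98 heavy chain that partners the light chains of the SLC7 family, went from 253, 276 and 227 TPM in GMP to 69.7, 106 and 109.6 in preNeu and 92.6, 72.7 and 90.3 in matNeu (-1.56 ± 0.18, limma adjusted p = 1.47e-05). Of its light chains read here, Slc7a5, Slc7a6 and Slc7a8 were called lower as well, Slc7a7 was not called and Slc7a11 rose. Against the 60.7% of genes called lower, these falls do not set the light chains apart. Slc7a5 (LAT1, for leucine and other large neutral amino acids) read 12.5, 17.7 and 16.4 TPM in GMP and 0, 2.32 and 0 in matNeu, and Slc7a6 read 68.7, 97.9 and 91 and 0.772, 0 and 2.86. Slc7a5 was a member through GMP alone. Slc7a8 had means of 18.8 and 1.55 TPM. Slc7a7 was highest in preNeu (means 9.15, 22.6 and 8.61 TPM), with a limma adjusted p of 0.0427 for the first step that rose to 0.167 without preNeu library 3, and its lower level in matNeu was not called with median-of-ratios scaling. Slc7a11 (xCT) trades glutamate for cystine, the building block of glutathione. It had 1.29, 1.74 and 1.31 TPM in GMP, 1.26, 1.18 and 1.38 in preNeu and 85.7, 87.7 and 130.2 in matNeu (5.36 ± 0.24, limma adjusted p = 7.38e-09). It entered the members through matNeu alone and so had to differ between stages. Its share of the TPM of Slc3a2 and these light chains went from 0.376 ± 0.03% to 50.7 ± 5%.

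Of the glutamine carriers, Slc1a5 (ASCT2) fell from 192, 198 and 178 TPM through 45.5, 70.7 and 76.1 to 6.43, 7.43 and 15.7 (-4.23 ± 0.29, limma adjusted p = 2.02e-07), and Slc38a1 from a mean of 58.8 through 12.7 to 0.809. Slc38a2 had means of 119.8, 86.9 and 105 TPM, with no call as deposited and a rise under median-of-ratios scaling. Slc6a6, the taurine transporter, stood at 55.2, 41.1 and 48.4 TPM in GMP, 42.8, 78.7 and 70.0 in preNeu and 328, 309 and 404 in matNeu (2.82 ± 0.22, limma adjusted p = 5.11e-07). Taurine is the most abundant free amino acid of neutrophils, where it takes up hypochlorous acid. Slc6a12, a betaine and GABA carrier, was highest in preNeu, at 35.1, 25.2 and 43.3 TPM against 0, 0.954 and 0.116 in GMP and 6.19, 3.85 and 9.21 in matNeu. The arginine carrier Slc7a1 fell from 19.8 to 1.15 TPM. Peptide carrier Slc15a2 was lowest in preNeu (means 22.1, 4.64 and 21.3 TPM), and Slc15a4, which serves endolysosomes, changed sign from GMP to matNeu with the scaling (means 39.3 and 24.6 TPM).

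Carriers that supply nucleotides and folate included several of the largest falls. Slc19a1, the reduced folate carrier, stood at 105, 123 and 112 TPM in GMP, 6.18, 2.94 and 6.23 in preNeu and 0, 0.18 and 0 in matNeu, the largest fall among the members (-6.75 ± 0.27, limma adjusted p = 3.70e-09). Slc29a1 (ENT1, an equilibrative nucleoside transporter) went from 197, 156 and 169 through 28.8, 17.4 and 29.4 to 3.21, 1.38 and 2.08 TPM (-5.80 ± 0.26, limma adjusted p = 7.78e-09). Slc43a3, a purine nucleobase carrier, kept 174, 174 and 200.4 TPM in preNeu, near the 140.0, 182 and 135 of GMP, and had 2.23, 1.63 and 1.33 in matNeu. Slc28a2, a sodium-coupled nucleoside carrier, was not called as deposited but was called higher in matNeu than in GMP under both other scalings, with 144, 184 and 168 TPM, and so held 87.3% of the class in matNeu. The lysosomal Slc29a3 had means of 50.2, 11 and 20.5 TPM. Among these genes Slc19a1 and Slc43a3 fell at different steps, the first from GMP to preNeu (-4.27 ± 0.27) and again to matNeu (-2.48 ± 0.27), the second from preNeu to matNeu (-6.08 ± 0.18) with no call before as deposited and a rise under both other scalings.

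Nucleotide sugar carriers feed the glycosylation of the Golgi, which includes the selectin ligands of neutrophils. Of 16 members 10 fell and 3 rose between GMP and matNeu (62.5% and 18.8%, near the shares of genes), with 7 falls under median-of-ratios scaling. Slc35a4 fell from 409.9, 422 and 401 TPM in GMP to 58.3, 49.4 and 45.9 in matNeu, and Slc35b2, the sulfate donor (PAPS) carrier, from 269, 310.3 and 239 to 26.5, 25.2 and 33.8. Slc35b4 fell from a mean of 85.8 to 1.98 TPM. Slc35c1, the GDP-fucose carrier whose loss causes a leukocyte adhesion deficiency, had 143, 115 and 32.7 TPM, and Slc35a1, the CMP-sialic acid carrier, 56.7, 27.8 and 3.5. Slc35a5 went from 27.1, 18.6 and 18.9 TPM through 71.8, 70.3 and 74.6 to 241, 254 and 364 (3.67 ± 0.19, limma adjusted p = 2.15e-08), Slc35d2 from a mean of 3.17 to 52.2, and Slc35e1 from 14.7 to 64.4. Slc35e4 was lowest in preNeu (means 8.7, 0.249 and 3.85 TPM).

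Inorganic ion carriers set cell volume, pH, phosphate and sulfate, and 3 of 16 members rose while 8 fell between GMP and matNeu (18.8% and 50%, against 23.6% and 60.7% of genes), a balance that median-of-ratios scaling turned to 7 rises and 6 falls. Slc12a9 fell and then rose (means 30.6, 5.17 and 69 TPM), and Slc26a11 entered through matNeu alone (1.6, 0.722 and 47). Slc9a9, an endosomal exchanger, was lowest in preNeu (13, 3.07 and 22.5). The phosphate importer Slc20a1 was not called (61.1, 47.4 and 59.3) but was called higher in matNeu under median-of-ratios scaling. The bicarbonate carrier Slc4a7 fell (28.4 to 4.66), and the anion exchanger Slc4a2 changed sign from GMP to matNeu with the scaling (23.5 and 16.6).

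Among the 25 carriers of vitamins, lipids and other solutes 5 rose and 17 fell between GMP and matNeu (20% and 68%, against 23.6% and 60.7% of genes), and median-of-ratios scaling gave 9 rises and 14 falls. Slc27a4, which takes up long-chain fatty acids, rose from 2.95, 4.97 and 11.1 TPM through 46, 53.3 and 47.7 to 97.5, 177 and 203 (4.54 ± 0.38, limma adjusted p = 8.95e-07). The choline carriers differed. Slc44a2, which carries the human neutrophil antigen HNA-3, had 243, 112 and 270.0 TPM and was called higher in matNeu than in GMP only under the other scalings, and Slc44a1 entered through matNeu alone (1.45, 1.2 and 41.7). Slc22a15 rose from 6.56 to 63.4 TPM while its relative Slc22a4 fell from 40.6 to 4.97. The thiamine carrier Slc19a2, the riboflavin carrier Slc52a2 and the biotin and pantothenate carrier Slc5a6 were all lower in matNeu, at 1.04, 2.56 and 3.46 TPM against 13.8, 15.9 and 23.7 in GMP. The remaining 3 members carry an Slc symbol without being transporters. The scaffold protein Slc9a3r1 (NHERF1) rose from 82.1 in GMP to 168 TPM in matNeu, Slc9a3r2 peaked in preNeu at 15.2, and Slc7a6os fell from 45 to 16.6.

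CHD4 binding was compared at promoters, taken from 2 kb before to 500 bp after the start of any protein-coding transcript and counted where a peak's summit fell inside. In wild-type GMPs 28 of 160 members had such a summit (17.5%, Wilson 95% interval 12.4 to 24.1), against 14.9% (14.2 to 15.7) of protein-coding genes at 5 TPM or more in a stage and 6.15% (3.47 to 10.7) of the other Slc genes. The intervals cover counting error only, since each list came from 1 library. Of the members that rose from GMP to matNeu 8 of 34 had one (23.5%, 12.4 to 40), of those that fell 12 of 96 (12.5%, 7.3 to 20.6), and of those not called 8 of 30 (26.7%, 14.2 to 44.4). Among genes at 5 TPM or more the shares in these groups were 26.9%, 10.6% and 13.5%. By class, 6 of 11 sugar carriers had a promoter summit (Slc2a6, Slc2a9, Slc37a1, Slc37a2, Slc37a3 and Slc45a4), as did 3 of 7 carboxylate carriers (Slc16a1, Slc16a7 and Slc16a14), 3 of 23 amino acid carriers (Slc6a12, Slc7a7 and Slc7a11) and 2 of 35 mitochondrial carriers (Slc25a12 and Slc25a28). Of the 6 members with the highest mean in matNeu, Slc2a6 had a promoter summit and Slc16a3, Slc2a3, Slc40a1, Slc25a5 and Slc11a1 had none. Counting from 10 kb before to 10 kb after the gene, 75 members (46.9%) and 43.9% of genes at 5 TPM or more had a summit. Slc2a3 had 7 such summits and Slc9a9, a long gene, 19.

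In Gfi1-/- GMPs 1 member, Slc5a6, had a promoter summit (0.625%, Wilson 95% interval 0.11 to 3.45), against 2.8% (2.48 to 3.17) of genes at 5 TPM or more. The Gfi1-/- list was shorter in all, with 7316 peaks against 35790. The paper reported far fewer CHD4 peaks in wild-type GMPs than this list holds. It also described sites with CHD4 alone as largely unaffected by loss of Gfi1. The shares in this paragraph hold for the longer list and not for the paper's own peak set. Of genes with a promoter summit in wild type, 242 of 1315 (18.4%, 16.4 to 20.6) had one in Gfi1-/- GMPs, and of the members 1 of 28 (3.57%, 0.633 to 17.7). The Slc5a6 peaks overlapped only in part and had 4.96-fold enrichment over control in wild type and 4.73-fold in Gfi1-/- GMPs. Within 10 kb of the gene 25 members (15.6%) and 14.3% of genes had a Gfi1-/- summit.

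The 5 strongest promoter peaks stood at Slc16a7, Slc9a9, Slc6a12, Slc37a3 and Slc14a1, with 15.8, 13.7, 13.4, 11 and 10.2-fold enrichment. Slc14a1 is a urea transporter that fell from 10.9 TPM in GMP to 0.278 in matNeu. Windows of 101 bases centred on the wild-type summit are shown for 5 members that were higher in preNeu or matNeu than in GMP (chosen after their values were seen), read from GRCm38.p6 on the gene's strand and lying outside annotated exons. Capitals mark AAATCA (the core of the GFI1 motif), GAGGAAG (a form of the SPI1 motif) and TTGCNNAA (a C/EBP motif) on either strand.
Slc2a6 at chr2:27028511-27028611: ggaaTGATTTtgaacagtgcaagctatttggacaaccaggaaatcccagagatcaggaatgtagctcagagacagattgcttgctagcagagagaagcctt
Slc37a3 at chr6:39379409-39379509: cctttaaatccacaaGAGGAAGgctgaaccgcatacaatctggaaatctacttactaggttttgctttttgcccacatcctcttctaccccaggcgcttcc
Slc7a11 at chr3:50443840-50443940: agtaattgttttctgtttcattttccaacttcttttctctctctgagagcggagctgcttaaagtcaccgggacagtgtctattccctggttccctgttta
Slc16a14 at chr1:84935790-84935890: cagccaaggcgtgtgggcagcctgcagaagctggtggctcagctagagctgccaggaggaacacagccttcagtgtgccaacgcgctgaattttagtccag
Slc6a12 at chr6:121343302-121343402: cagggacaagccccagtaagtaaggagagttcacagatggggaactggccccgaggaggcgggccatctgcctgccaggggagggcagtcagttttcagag
The summits lay 563, 1784, 276 and 706 bp upstream of the annotated gene start for Slc2a6, Slc37a3, Slc7a11 and Slc16a14, and 276 bp downstream, in an intron, for Slc6a12. AAATCA was in the Slc2a6 window and GAGGAAG in that of Slc37a3, and the other 3 windows held none of the 3 motifs. Over the 28 member promoter summits AAATCA was in 2 windows (7.14%), GAGGAAG in 4 (14.3%) and TTGCNNAA in 4 (14.3%). Among all wild-type CHD4 summit windows the shares were 5.62%, 17.1% and 9.72%, and among those of Gfi1-/- GMPs 6.52%, 16.4% and 11%. A match is a description of the letters and not a bound site.

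An H3K4me2 peak overlapped the promoter of 153 of 160 members in GMP (95.6%, Wilson 95% interval 91.2 to 97.9), 158 in preNeu (98.8%, 95.6 to 99.7) and 156 in matNeu (97.5%, 93.7 to 99), against 94.4%, 96.2% and 95.9% of genes at 5 TPM or more. The GMP count rested on weak peaks, since with peaks of −log10 q of 5 or more it was 69 (43.1%, against 38.9% of genes), while preNeu kept 154 and matNeu 149. Of the other Slc genes 38.5%, 34.1% and 29.1% had one. In all 3 stages 151 members had a peak. No member had one in GMP alone, and 5 had one in preNeu and matNeu but not in GMP (3.12% of members, 2.22% of genes), namely Slc25a5, Slc4a7, Slc35a2, Slc5a11 and Slc22a20. Slc25a5, the most abundant member in GMP, was among them, so its transcript was highest in the stage where no promoter peak was called. Peaks did lie within 5 kb of the gene start in GMP at Slc25a5 (496 bp), Slc4a7 (1751), Slc35a2 (1393) and Slc22a20 (1576), but not at Slc5a11. Slc22a3, an organic cation carrier, and Slc27a1, a fatty acid carrier, had peaks in GMP and preNeu but not in matNeu, and both were lower in matNeu (15 TPM in GMP and listed at 0 in matNeu for the first, 14.5 and 1.33 TPM for the second). Slc15a2 and Slc26a3 had none in any stage.

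Within 5 kb either side of the gene start, members that rose from GMP to matNeu had a median of 2.52 kb under H3K4me2 peaks in GMP, 4.6 kb in preNeu and 4.76 kb in matNeu. Members that fell had 2.58, 3.05 and 2.4 kb, and members not called 2.48, 3.45 and 2.93 kb. More was covered in matNeu than in GMP at 30 of 34 members that rose (88.2%), 36 of 96 that fell (37.5%) and 24 of 30 not called (80%). The shares of genes at 5 TPM or more were 85.6%, 52.6% and 75.1% in these groups. The lists covered 49.8 Mb in GMP, 97.9 Mb in preNeu and 80.4 Mb in matNeu in all, so more was called in the neutrophil stages over the genome as a whole.

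**Figure D4:**
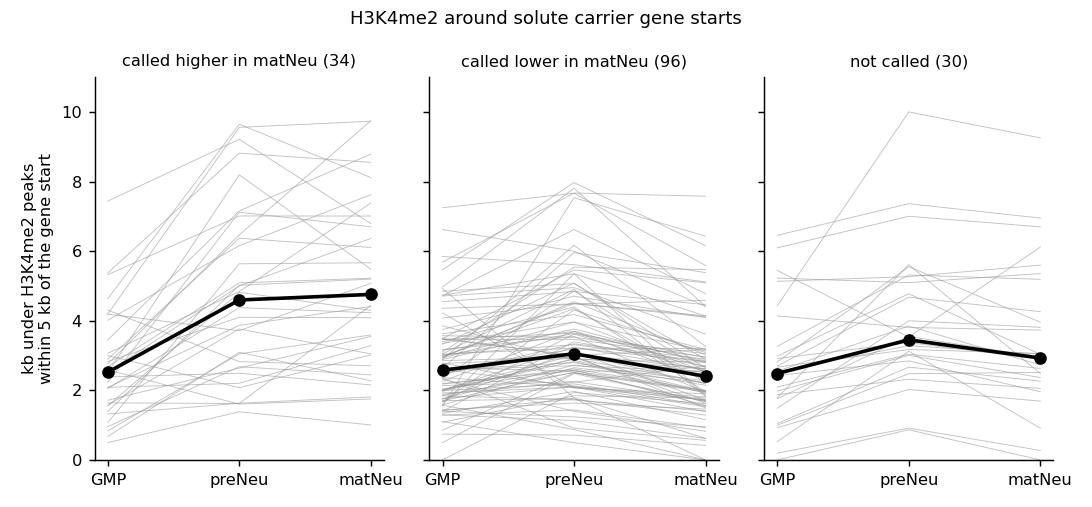
Length under H3K4me2 peaks within 5 kb either side of the gene start (kb) in GMP, preNeu and matNeu, with a grey line for each member, a black line for the median and panels by the limma call from GMP to matNeu. The median rises from 2.52 to 4.76 kb in the 34 members that rose and stands at 2.58 and 2.4 kb in the 96 that fell.

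Single members showed the range. At Slc37a3 the covered length went from 2760 bp in GMP to 6465 in preNeu and 9746 in matNeu, at Slc7a11 from 1388 to 5018 and 5196, and at Slc40a1 from 1075 to 5636 and 5666. At Slc7a11 the length had already grown in preNeu, where the transcript was still at 1.26, 1.18 and 1.38 TPM. Slc16a3 had 4014, 6157 and 7621 bp. Slc2a3 went the other way, with 2588 bp in GMP and 1752 in matNeu while its TPM rose. Slc2a6 kept 3713 bp in preNeu, where its transcript was lowest, between 4189 in GMP and 5074 in matNeu. Among members that fell, Slc16a1 went from 4849 to 2892 bp, Slc19a1 from 3494 to 1495 and Slc25a4 from 2318 to 821. These are lengths from 1 library a stage, with no replicate check.

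Open chromatin (ATAC-seq) could not be set against stage, since the peak lists deposited for preNeu and matNeu were identical. A peak of that list overlapped the promoter of 119 of 160 members (74.4%) and of 73.8% of genes at 5 TPM or more. It did so at 29 of 34 members that rose (85.3%), 70 of 96 that fell (72.9%) and 20 of 30 not called (66.7%). The shares of genes at 5 TPM or more in these groups were 76.4%, 71% and 81.1%.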

How the data were processed

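RNA was measured in 3 libraries each of GMP, preNeu and matNeu. The authors deposited TPM values per gene, which sum to 1000000 in each library and carry no depth. The submitters' processing notes name Trimmomatic 0.36, kallisto 0.44.0, BWA 0.7.17 and MACS2 2.1.0. For each peak on GRCm38 coordinates the authors' lists hold the fold over background and the −log10 of its q-value, from 1 library each. H3K4me3 and GFI1 lists, with coordinates outside that build, were not used.

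The 13061 genes at 1 TPM or more in at least 3 libraries were transformed to log2(TPM + 1) and fitted across the 9 libraries using limma (version 3.58.1, run under R 4.3.3), with a variance trend and Benjamini-Hochberg adjustment, after the script was tested on simulated data. Promoters came from GENCODE basic transcripts. A CHD4 peak counted by its summit, and H3K4me2 by an overlap of 1 bp or more.

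Members and lists were chosen with earlier results of these data known. Named genes were, by rule, the 3 highest of each class, the 10 largest rises and 10 largest falls, the 5 largest preNeu excesses and deficits, paralogs of listed groups, neighbours of the 5 TPM limit, the 5 strongest or genotype-shared CHD4 promoter peaks and H3K4me2 patterns. Other genes were named after their values were seen. Some items covered by the rule are not reported here. Alternatives changed pseudocount, filter, scaling, fit, libraries, promoter and peak limits.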

Additional observations from a re-analysis of the deposited data

How the results depend on the processing

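The sum of rises and falls among members stayed within 1.5 times the reported count under another pseudocount, no filter on TPM, both scalings, a fit of the compared stages alone, no variance trend, a lower limit of 1 TPM and the replicate block. The replicate block gave 130, 119 and 113 calls for matNeu against GMP, preNeu against GMP and matNeu against preNeu. Whether the labels' replicate numbers pair the samples is not known. Of 9 same-numbered pairs 1 correlated at over 0.1 in their deviations, which cannot show that the libraries were unpaired. Leaving out each library in turn gave 123 to 130, 105 to 121 and 102 to 115 calls. Members at 5 TPM or more in every stage, which are fewer by construction, gave 62, 58 and 57. Rises alone went from 34 to 54 between GMP and matNeu and from 26 to 40 between GMP and preNeu with median-of-ratios scaling. Rises were 22% of calls from GMP to preNeu as deposited, 37.7% with median-of-ratios scaling and 34.9% without the 100 most abundant genes, and 36%, 46.4% and 31.1% from preNeu to matNeu.

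With median-of-ratios scaling the log2 change from GMP to matNeu turned for Slc15a4 (0.156), Slc20a1 (0.809), Slc38a2 (0.669), Slc39a7 (0.066) and Slc4a2 (0.336), that from preNeu to matNeu for Slc25a5 (0.019), and that from GMP to preNeu for Slc48a1 (0.031) and Slc35c1 (0.203, and 0.106 without the 100 most abundant genes). The cause was not tested. Of the other values of named genes 4518 kept direction and call, 155 lost the call and 70 gained one. Members with a CHD4 promoter summit in Gfi1-/- GMPs numbered 0 with promoters of 1 kb either side and 2 with the annotated gene start alone. With peaks of −log10 q of 5 or more, 69 members had an H3K4me2 promoter peak in GMP (43.1%, against 38.9% of genes at 5 TPM or more), 154 in preNeu and 149 in matNeu. TPM carries no depth, so the precision of low levels is unknown.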
